A study of Triticum aestivum with 6 samples.

Results

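The grass-clump dwarf line crt/KU-2025 was compared with the grass-clump dwarf line Ldn/KU-2025 in crown tissues, from 2 arrays of each line. These 4 arrays of the 6 in the series were taken by their labels, and the remaining 2 arrays, of the wild-type (WT) line Ldn/KU-2059, did not enter the comparison. Both dwarf lines are synthetic hexaploid wheats, in which the AB genomes come from a tetraploid wheat and the D genome from Aegilops tauschii. The tetraploid parent was T. turgidum subsp. carthlicum (crt) in crt/KU-2025 and the durum wheat cultivar Langdon (Ldn) in Ldn/KU-2025, and the D genome of both came from the Ae. tauschii accession KU-2025. Each line descends from 1 cross combination, so that the comparison is between these lines and not between tetraploid subspecies in general. The plants were 8 weeks old and had been kept at 24°C in long days (18 h light, 6 h dark), without low-temperature treatment. The question is which transcripts differ between dwarf lines that share the D genome parent and the growth phenotype but not the tetraploid parent.

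The crown is the base of the wheat shoot, where the apical meristem and the tiller buds sit. Grass-clump dwarf plants stay short, form many tillers and head late. In wheat, the change from making leaves to making a spike is driven by MADS-box transcription factors of the APETALA1 group, to which the vernalization gene Vrn-A1 belongs, and SPL transcription factors, the targets of miR156 in plants, act earlier in the same change. Hybrid necrosis in plants is commonly described as an autoimmune-like state, in which pathogenesis-related (PR) proteins, glucanases, chitinases and protease inhibitors accumulate without a pathogen.

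Signals were read from the KOMUGI 38k array, a 1-color Agilent oligonucleotide array with 37826 wheat probes, and each array was scaled to a trimmed mean of 2500. The scaled signals have no unit and can be compared between lines for the same probe, but not between probes. Between 75.4% and 77.6% of the probes were well above background on an array, and 0 were saturated. A probe was called higher or lower when the lines were 3-fold or more apart in mean log2 signal and the limma p-value, adjusted over all probes by the Benjamini-Hochberg method, lay under 0.05. All adjusted p-values below are from this test, and all log2 ratios are crt/KU-2025 over Ldn/KU-2025. Where neither array of a line was well above background, the signal of that line is only an upper limit, and the difference is given as at least a fold, against the higher of the lowest signal that was still well above background and the probe's own signal on each array. The arrays of crt/KU-2025 differed from each other more than those of Ldn/KU-2025. The SD over probes of the log2 difference between replicate arrays was 0.776 for crt/KU-2025, against 0.468 for Ldn/KU-2025, and 1921 probes (5.08%) were at least 3-fold apart between the crt/KU-2025 arrays, against 625 (1.65%) between the Ldn/KU-2025 arrays. Both crt/KU-2025 arrays were on slide 2 and both Ldn/KU-2025 arrays on slide 1, with different scans, so that line and slide cannot be told apart. The 10 spiked-in control transcripts, which carry no plant signal, lay between log2 ratios of -0.28 and 0.49, with a median of 0.08, and 0 of the 10 were 3-fold apart.

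The dwarf lines had widely different crown transcriptomes. Of the 37826 probes, 6842 (18.1%) were called, of which 3491 (9.23%) rose and 3351 (8.86%) fell in crt/KU-2025 relative to Ldn/KU-2025. By the fitted ratio, 777 of the higher and 883 of the lower probes were at least 10-fold apart, and 101 and 79 were at least 100-fold apart. These counts include probes whose dimmer line was below background, for which the fitted fold is not a measured one. The dimmer line was well above background on neither array for 962 of the higher and 1095 of the lower probes. The median log2 ratio over all probes was 0.11 and its SD was 1.57, and 21.11% of the probes lay at least 3-fold apart. The median absolute log2 ratio between the lines was 0.71, against a median absolute difference between replicate arrays of 0.196 for crt/KU-2025 and 0.0697 for Ldn/KU-2025. Of the probes called, 2797 higher and 2710 lower ones were at least 3-fold apart in all 4 pairings of 1 array from each line. In 48.5% of all probes both crt/KU-2025 arrays lay above both Ldn/KU-2025 arrays, and in 32.6% both lay below, so that groups without overlap were common on this array. A further 1143 probes were at least 3-fold apart but were not called, and for 804 of these the crt/KU-2025 arrays were themselves at least 3-fold apart. The called probes were spread over the whole range of signals, but not evenly. When the probes were ranked by mean signal and cut into 4 equal groups, 6.18% of the dimmest group were higher and 7.35% lower, and of the brightest group 6.51% were higher and 6.28% lower. Of the second dimmest group 13.25% were higher and 13.28% lower, and of the next 10.98% and 8.52%. The median signal of the dimmest group was 9.52, which is below the lowest signal that was well above background on any array.

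**Figure D1:**
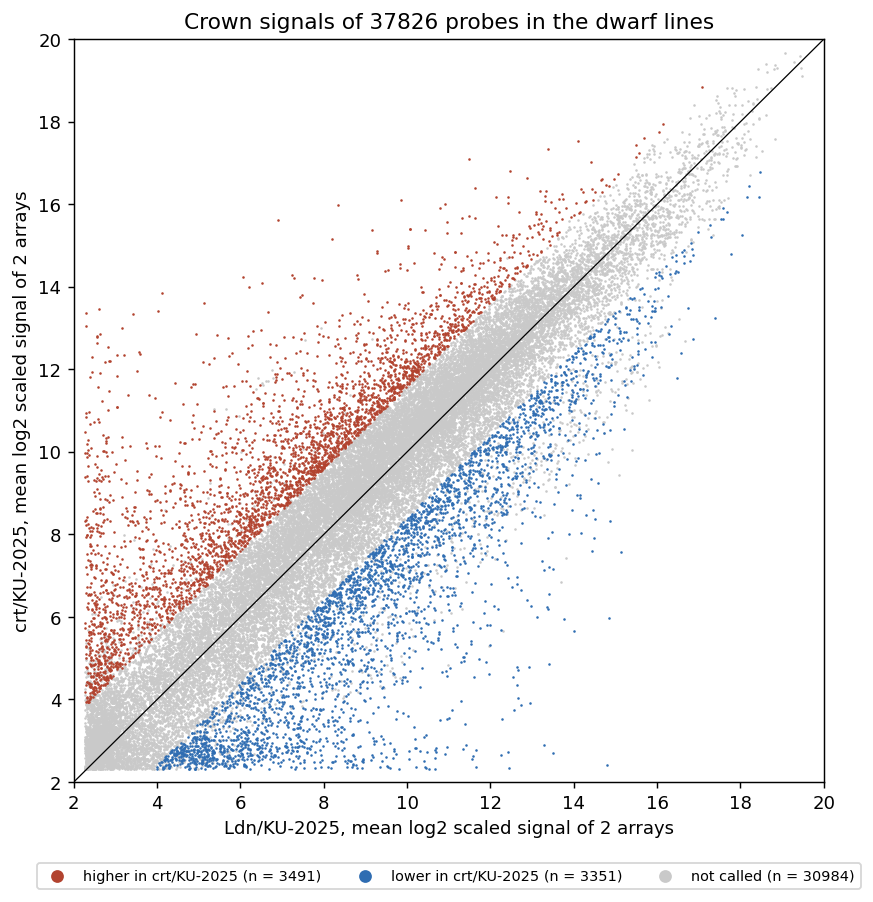
Mean log2 scaled signal of each of the 37826 probes in crt/KU-2025 (vertical axis) against that in Ldn/KU-2025 (horizontal axis), each a mean of 2 arrays, with the line of equal signal. The 3491 probes called higher in crt/KU-2025 lie above the line and the 3351 called lower lie below it, at all signal levels.

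Gene descriptions were available for few of these probes, and unevenly. Of the higher probes 559 had an informative description, but of the lower probes only 43, because the descriptions come from the study's lists of probes that changed against WT, of which the list for probes lowered in crt/KU-2025 was not used here and the list for probes raised in it was used only in part. The study chose all of these lists on the same arrays. A further 13 probes were chosen as examples of their classes after their values were seen, namely those described below as chitinase, glucanase GII, inhibitor CI-1B, RPM1, peroxidase 5, RR4, cytokinin-O-glucosyltransferase 1, gibberellin 2-beta-dioxygenase 8, auxin transporter 1, legumin, RuBisCO activase, the histone probe that was not called and the chlorophyll a/b binding probe rwhcs20f08_m_664. The counts given below for described genes are therefore not independent evidence of a direction, and they are read as a description of the members. The shares to set beside each count are those over all probes, 9.23% higher and 8.86% lower.

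Part of the difference lay in probes measured in 1 line only. There were 1043 probes (2.76%) well above background on both crt/KU-2025 arrays and on neither Ldn/KU-2025 array, and 1254 probes (3.32%) with the opposite pattern. Most of these were dim, with a median signal in the detecting line of 76.5 and 68.0. At least 10-fold over the bound of the other line were 211 of the 1043 and 182 of the 1254. The brightest probe detected in Ldn/KU-2025 only was wheat0130Contig14242, which has no description. Its signals were 5.25 and 5.35 in crt/KU-2025, against 27619 and 29109 in Ldn/KU-2025, at least 1133-fold lower in the crt line (adjusted p of 0.000984). wheat0130Contig13777 and wheat0130Contig10922, also without description, were at least 463-fold and 400.1-fold lower. In the other direction, MUGEST2003_23lib_Contig11959_183 had 11577 and 11061 in crt/KU-2025, against 6.89 and 5.31 in Ldn/KU-2025, at least 470.4-fold higher. whfl_allContig1975 was at least 435-fold and wheat0130Contig5371 at least 453-fold higher. On an array, a lower transcript level and a poorer match of the line's transcript to the probe cannot be told apart.

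Among the probes well above background on all 4 arrays, the largest rise was that of MUGEST2003_23lib_Contig4076_p_195, with signals of 44551 and 56364 in crt/KU-2025, against 130.4 and 109 in Ldn/KU-2025. This was a log2 ratio of 8.71 (SE 0.18, adjusted p of 0.00124). wheat0130Contig12326 and ncbi_gi_30025136_1079 followed with log2 ratios of 8.17 and 7.92. None of these 3 probes has an informative description. The largest fall was that of wheat0130Contig14937, with 38.8 and 101 in crt/KU-2025, against 42089 and 20288 in Ldn/KU-2025, a log2 ratio of -8.86 (SE 0.69, adjusted p of 0.00461). The groups did not overlap, although the arrays of each line were at least 2-fold apart for this probe. wheat0130Contig7727 had 1069 and 33.9 in crt/KU-2025, against 35449 and 36332 in Ldn/KU-2025, and its call at an adjusted p of 0.0499 became 0.146 when either Ldn/KU-2025 array was left out. For wheat0130Contig121, with 153 and 35.5 in crt/KU-2025, against 11035 and 10481 in Ldn/KU-2025, the adjusted p of 0.0089 became 0.0507 to 0.0521 in the same fits.

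MADS-box transcription factors, among them the flowering promoters of the APETALA1 group, were mostly lower in crt/KU-2025. Of the 9 MADS-box probes that the study names, 6 were lower and 2 higher, and the fitted median log2 ratio was -4.00, or -3.03 with the probes below background at their bounds, against a median of 0.11 over all probes. The study names all 6 lower probes as lowered in a dwarf line on these same arrays, so that their common direction is not independent evidence. The 2 higher probes come from its list of factors raised in Ldn/KU-2025 by low temperature. The probe for Vrn-A1, the vernalization gene that promotes the floral transition, had 8.35 and 13.3 in crt/KU-2025, against 179 and 159 in Ldn/KU-2025. It was not well above background on either crt/KU-2025 array, which puts it at least 6.74-fold lower (adjusted p of 0.00405). BM5A, named after the barley counterpart of this gene, had 20.7 and 23.3 in crt/KU-2025, against 206 and 202 in Ldn/KU-2025, at least 8.15-fold lower, and both probes may detect closely similar transcripts. The probe for TaAP1-2, another member of the APETALA1 group, had 5.9 and 10.8 in crt/KU-2025, against 594 and 582 in Ldn/KU-2025, and the groups were at least 23.5-fold apart. TaAP1-3 stayed well above background in both lines. Its signals were 1532 and 1752 in crt/KU-2025, against 4253 and 4056 in Ldn/KU-2025, a log2 ratio of -1.34 (SE 0.11, adjusted p of 0.0049), which is less than 3-fold and was not called.

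The probes named WM are wheat MADS-box genes. In the study's lists the WM7 and TaAP1-2 probes match the same database sequence, as do the WM8 and Vrn-A1 probes. The 9 probes may therefore stand for fewer than 9 genes. The study lists WM7, WM8, WM13 and BM5A as lowered in crt/KU-2025 against WT on these same arrays. WM7 had 7.45 and 6.93 in crt/KU-2025, against 1983 and 1987 in Ldn/KU-2025, at least 79.3-fold lower (adjusted p of 0.000984), the largest fitted fall among the transcription factors that the study names. WM13 had 15.2 and 29.9 in crt/KU-2025, against 518 and 539 in Ldn/KU-2025, at least 19-fold lower. WM8 was detected in both lines, with 46.6 and 72.6 in crt/KU-2025, against 1377 and 1443 in Ldn/KU-2025, a log2 ratio of -4.60 (SE 0.26, adjusted p of 0.00315). The 2 MADS-box probes that went the other way were dim. WM30 had 115 and 88.2 in crt/KU-2025, against 25.9 and 18.9 in Ldn/KU-2025, at least 4.03-fold higher, and WM20 was called although it was not well above background on any of the 4 arrays, so that no fold is given for it. With normexp background correction, 4 of the 9 probes were lower and 0 higher. A MADS-box probe outside this list, MUGEST2003_23lib_Contig15044_1125, described as MADS-box transcription factor 56, had 258 and 383 in crt/KU-2025, against 2265 and 2385 in Ldn/KU-2025, a log2 ratio of -2.89.

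All 3 SPL probes that the study names were lower in crt/KU-2025. The study names them as down-regulated in crt/KU-2025 on these same arrays, so that their common direction is not independent evidence. SPL proteins are plant-specific transcription factors that act upstream of the APETALA1 group in the change to flowering. The SPL probe wheat0130Contig8035 had 78 and 74 in crt/KU-2025, against 10882 and 10268 in Ldn/KU-2025. This was a log2 ratio of -7.12 (SE 0.09, adjusted p of 0.000984), the largest fall among described probes detected in both lines. The SPL probe rwhoh17n20 had 641 and 616 in crt/KU-2025, against 2921 and 2823 in Ldn/KU-2025, a log2 ratio of -2.19. MUGEST2003_23lib_Contig14620_504 had 5.46 and 8.17 in crt/KU-2025, against 49.8 and 52.6 in Ldn/KU-2025, which is at least 2.05-fold lower, and it was not called with normexp background correction.

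**Figure D2:**
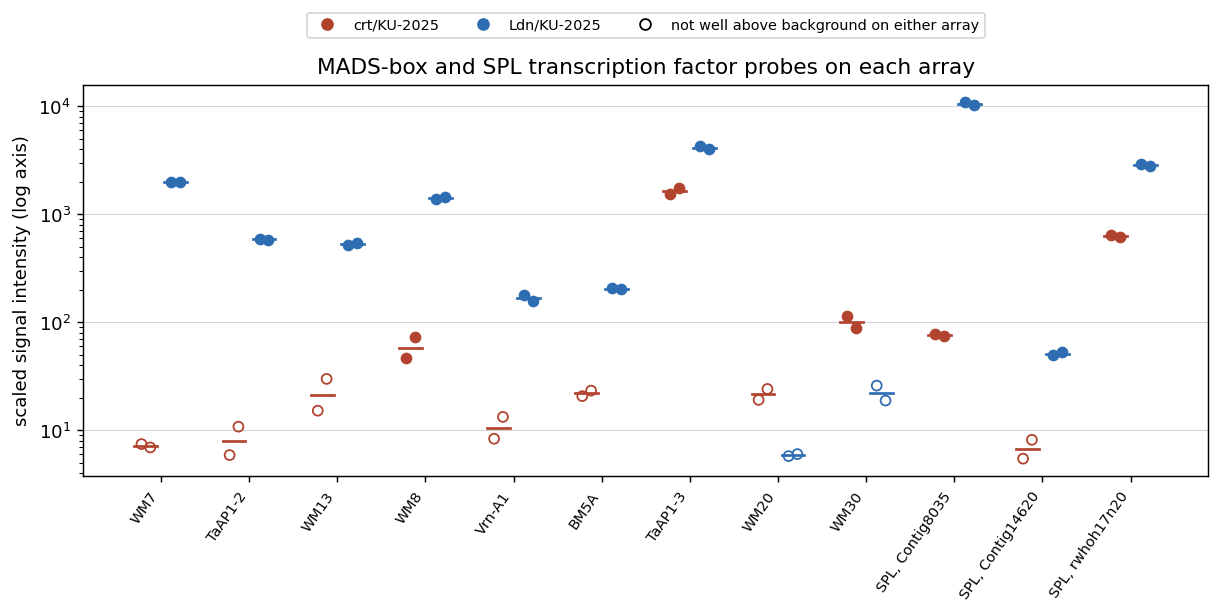
Scaled signals (vertical, log axis) of 9 MADS-box and 3 SPL probes on each array. Each point is 1 array, with crt/KU-2025 left of Ldn/KU-2025, short bars are the means of the log2 signals, and open points mark a line in which the probe was not well above background on either array. The first 6 probes, from WM7 to BM5A, lie at 72.6 or below on the crt/KU-2025 arrays and at 159 or above on the Ldn/KU-2025 arrays.

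Several AP2/ERF transcription factors, a family with members in organ growth and stress responses, were also lower. Of the 9 AP2/ERF probes 4 were lower and 0 higher, beside 8.86% and 9.23% of all probes, and 5 were not called. All 4 lower ones are on the study's list of transcription factors lowered in crt/KU-2025 on these same arrays. So are the lower probes of other families named in this paragraph, and their direction is not independent evidence. AP2 (rwhyf2e11) had 110.2 and 116 in crt/KU-2025, against 1031 and 1114 in Ldn/KU-2025, a log2 ratio of -3.24 (SE 0.09, adjusted p of 0.00149). WIN1-like (MUGEST2003_23lib_Contig10290_927), named after an Arabidopsis regulator of cutin and wax formation, had 28.8 and 14.8 in crt/KU-2025, against 309.9 and 322 in Ldn/KU-2025 and was well above background on 1 of the 2 crt/KU-2025 arrays. AIL5 and BBM2-like, relatives of the AINTEGUMENTA growth regulators of Arabidopsis, were each well above background on 1 of the 2 crt/KU-2025 arrays and had log2 ratios of -2.56 and -1.75, and for AIL5 the adjusted p of 0.0108 became 0.0537 to 0.0605 with 1 of the Ldn/KU-2025 arrays left out. With normexp background correction 1 of the 9 was called. The homeodomain-leucine zipper probe wheat0130Contig8821 (log2 ratio of -2.25), the RWP-RK probe MUGEST2003_23lib_Contig1699_433 (-2.57), the bZIP factor HBP-1a (-1.68) and Dp-1 (-1.62), a partner of E2F in cell cycle control, were lower as well. Dp-1 fell short of 3-fold without replicate 2 of crt/KU-2025 (log2 ratio of -1.47), and the G-box binding factor 3 probe ATU17891 fell short of the call there, with 14.5 and 5.68 in crt/KU-2025, against 50.9 and 35.9 in Ldn/KU-2025, which also fell short with 1 of the Ldn/KU-2025 arrays left out (adjusted p of 0.115 to 0.16).

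WRKY transcription factors, which regulate defence genes in plants, were mixed but more often higher. Of the 13 WRKY probes that the study names, 5 were higher, 1 was lower and 7 were not called. The shares over all probes were 9.23% higher and 8.86% lower. WRKY10 (rwhcs14n21_490) had 7562 and 9574 in crt/KU-2025, against 332 and 327 in Ldn/KU-2025, a log2 ratio of 4.69 (SE 0.15, adjusted p of 0.00171). MUGEST2003_23lib_Contig5310_624, an unnumbered WRKY, had 2958 and 3157 in crt/KU-2025, against 262 and 287 in Ldn/KU-2025, a log2 ratio of 3.48. WRKY45, which mediates induced resistance in rice, had 13337 and 8101 in crt/KU-2025, against 1303 and 1237 in Ldn/KU-2025, a log2 ratio of 3.03. WRKY13 (log2 ratio of 2.06) and WRKY54 (at least 1.97-fold) were the other members that were higher. All of the higher members but WRKY45 are on the study's list of transcription factors raised in crt/KU-2025 on these same arrays. The lean of the family to higher values is therefore not independent evidence. WRKY45 and the 1 lower member come from its lists for the response of Ldn/KU-2025 to low temperature. WRKY17 alone was lower, with 2749 and 3340.1 in crt/KU-2025, against 10460.1 and 9832 in Ldn/KU-2025, a log2 ratio of -1.74. The 7 WRKY probes that were not called were well above background on all 4 arrays, among them wheat0130Contig3983, with 23220.0 and 25064 in crt/KU-2025, against 26319 and 25161 in Ldn/KU-2025.

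In all, 32 of the 51 named transcription factor probes were called, 13 higher and 19 lower. The counts differed with the list of the study that a probe was on. Of the 11 it lists as raised in crt/KU-2025 against WT, 10 were higher than in Ldn/KU-2025, and of the 13 it lists as lowered in crt/KU-2025, all 13 were lower. A further 21 are counted only for the response of Ldn/KU-2025 to low temperature and were not picked on the crt/KU-2025 arrays. Of these 21, 3 were higher and 1 was lower, and these 4 calls are a share near the 18.1% called over all probes. The low-temperature lists also hold probes counted here under the other lists or the study's text. All of those were called, and the share among the 21 leaves them out. Other members that were higher were the secondary wall NAC 3 probe rwhh21m11, with 1198 and 1223 in crt/KU-2025, against 109.6 and 119 in Ldn/KU-2025, and the bZIP probe wheat0130Contig13733, with 1002 and 815 in crt/KU-2025, against 96.5 and 97.2 in Ldn/KU-2025. The log2 ratios were 3.40 and 3.22. MYB44-like (wheat0130Contig2276) had 1657 and 1354 in crt/KU-2025, against 491 and 533 in Ldn/KU-2025, a log2 ratio of 1.55 that stayed below 3-fold.

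Described defence-related probes were mostly higher in crt/KU-2025, but the study's list of probes lowered in crt/KU-2025 was not used. Defence-related probes found only on that list are not counted. The study reports defensin among the genes repressed in crt/KU-2025. Over all probes, 9.23% were higher and 8.86% lower. Of 91 probes described as PR proteins, glucanases, chitinases, germins, peroxidases, disease resistance proteins, enzyme inhibitors or receptor kinases, 64 were higher, 5 were lower and 22 were not called, with a fitted median log2 ratio of 2.82, or 2.36 with dim probes at their bounds. Of the 58 members on the study's list of probes raised in crt/KU-2025, 48 were higher and 0 lower. Of the 30 members on its list of probes raised in Ldn/KU-2025 against WT, 18 were still higher in crt/KU-2025 and 3 were lower. Of the 6 on its list of probes lowered in Ldn/KU-2025, 0 were higher and 2 lower, with a median log2 ratio of -0.28, so that the direction differed with the list. The summed signals of the 91 probes were 460830 and 575285 on the crt/KU-2025 arrays, against 63798 and 65592 on the Ldn/KU-2025 arrays.

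All 11 probes for PR proteins, glucanases and chitinases were higher, with a fitted median log2 ratio of 6.03, or 4.81 with dim probes at their bounds. Of these 11, 8 were on the study's list of probes raised in crt/KU-2025. PR1 is a small secreted protein used as a marker of salicylic acid-dependent defence. The PR1 probe wheat0130Contig6231 had 41366 and 39735 in crt/KU-2025, against 1856 and 2132 in Ldn/KU-2025, a log2 ratio of 4.35 (SE 0.11, adjusted p of 0.00141), and the other PR1 probe, wheat0130Contig2348, had 569 and 797 in crt/KU-2025, against 6.46 and 6.26 in Ldn/KU-2025, at least 28-fold higher. PR4, a chitin-binding PR protein, had 4200.4 and 12803 in crt/KU-2025, against 33.5 and 55.8 in Ldn/KU-2025 at wheat0130Contig9215. The crt/KU-2025 arrays were at least 3-fold apart for PR4, which was well above background on 1 of the Ldn/KU-2025 arrays, but both lay above both Ldn/KU-2025 arrays, with a log2 ratio of 7.40 (SE 0.70, adjusted p of 0.00625). The study also measured PR1 and PR4 by quantitative RT-PCR, in younger plants. It reports them as raised in both dwarf lines at low temperature, but not at normal temperature. That difference from the array signals was not tested here. Endo-1,3-beta-glucanases cut the glucans of fungal and callose walls. MUGEST2003_23lib_Contig16264_863, described as one of these, had 16922 and 17822 in crt/KU-2025, against 100.4 and 82.6 in Ldn/KU-2025, a log2 ratio of 7.57 (SE 0.13, adjusted p of 0.00117), the largest rise among described probes detected in both lines. The glucanase probe whsh_allContig891 was at least 105-fold higher. The chitinase probe wheat0130Contig5942 had 18791 and 31127 in crt/KU-2025, against 969 and 855 in Ldn/KU-2025, a log2 ratio of 4.73. The methods' t-test, on unlogged signals, adjusted over all probes, called 7 of these 11 probes.

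Inhibitors of proteases, amylases and xylanases, which act against the digestive enzymes of insects and pathogens, formed another high group. Of 12 probes 10 were higher and 0 lower, with a median log2 ratio of 4.64. MUGEST2003_23lib_Contig3803_446, similar to an alpha-amylase trypsin inhibitor, had 27126 and 48996 in crt/KU-2025, against 278 and 308 in Ldn/KU-2025, a log2 ratio of 6.96 (SE 0.35, adjusted p of 0.00271). The subtilisin-chymotrypsin inhibitor CI-1B probe wheat0130Contig12699 had 33820.1 and 54498 in crt/KU-2025, against 1052 and 1086 in Ldn/KU-2025, a log2 ratio of 5.33, and probes with the same description may detect the same or closely similar transcripts. For both of these inhibitors the crt/KU-2025 arrays were less than 2-fold apart. The methods' t-test called 3 of the 12 inhibitor probes. WIR1B, a small wheat protein induced by fungal attack, had 7966 and 7695 in crt/KU-2025, against 68.4 and 92.1 in Ldn/KU-2025, a log2 ratio of 6.62. The BURP domain probe MUGEST2003_23lib_Contig1177_708 had 6555 and 7229.7 in crt/KU-2025, against 54 and 49.8 in Ldn/KU-2025, a log2 ratio of 7.05.

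Germin-like proteins, extracellular proteins of which several make hydrogen peroxide, split by kind. The germin 8-5 probe wheat0130Contig11551 had 19239.5 and 18712 in crt/KU-2025, against 168.1 and 145 in Ldn/KU-2025, and the other germin 8-5 probe, MUGEST2003_23lib_Contig3789_112, had 15644 and 13141 in crt/KU-2025, against 181 and 177 in Ldn/KU-2025. These were log2 ratios of 6.93 and 6.33, with standard errors of 0.11 and 0.12. The germin 5-1 probes were lower in crt/KU-2025. wheat0130Contig12252 had 678 and 491 in crt/KU-2025, against 3335 and 3533 in Ldn/KU-2025, a log2 ratio of -2.57, and wheat0130Contig6784 had 1160.1 and 804 in crt/KU-2025, against 3334 and 3520.2 in Ldn/KU-2025, a log2 ratio of -1.83 whose call was lost without replicate 2 of crt/KU-2025 and with either array of Ldn/KU-2025 left out (adjusted p of 0.0587 to 0.0608). Of 14 peroxidase probes 9 were higher and 0 lower, with a median log2 ratio of 1.86. Peroxidases cross-link cell walls and consume hydrogen peroxide. Peroxidase 72-like (wheat0130Contig6294) had 1276 and 756 in crt/KU-2025, against 69.1 and 72.4 in Ldn/KU-2025, and peroxidase 5 (whr18a08) had 2457 and 2549 in crt/KU-2025, against 313 and 328 in Ldn/KU-2025. The number of peroxidase probes called higher was 6 without replicate 1 of Ldn/KU-2025 and 5 with normexp background correction.

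**Figure D3:**
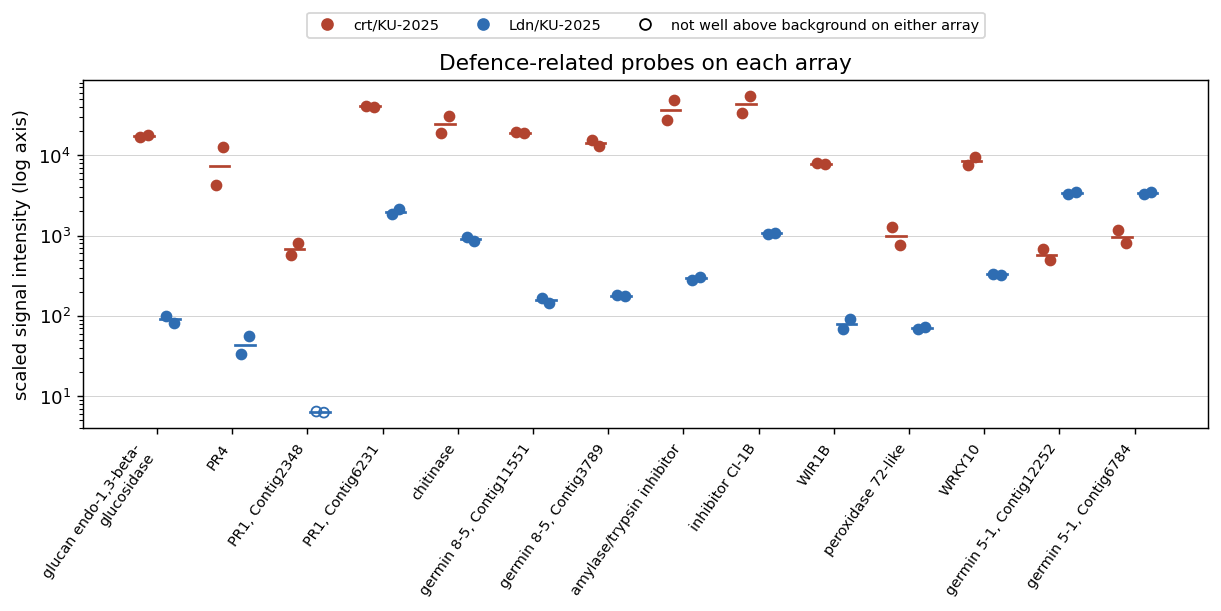
Scaled signals (vertical, log axis) of 14 defence-related probes on each array. Each point is 1 array, with crt/KU-2025 left of Ldn/KU-2025, short bars are the means of the log2 signals, and open points mark a line in which the probe was not well above background on either array. The first 12 probes are higher in crt/KU-2025, and the 2 germin 5-1 probes on the right are lower.

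Described immune receptors and signalling proteins followed the same direction more often than not. Most of them came from the study's list of probes raised in crt/KU-2025. Of 18 probes described as disease resistance proteins, the NBS-LRR receptors that recognise pathogen effectors, 13 were higher and 1 was lower, with a fitted median log2 ratio of 2.99 that was 1.74 with dim probes at their bounds. MUGEST2003_23lib_Contig7212_967 had 1626 and 1671 in crt/KU-2025, against 5.24 and 5.2 in Ldn/KU-2025, at least 68.5-fold higher. The RPM1-like probe MUGEST2003_23lib_Contig5812_564 had 4019 and 3659 in crt/KU-2025, against 145 and 144 in Ldn/KU-2025, a log2 ratio of 4.73. The member that was lower, rwhyf28g23, had 5.38 and 5.08 in crt/KU-2025, against 44.6 and 53 in Ldn/KU-2025, at least 1.94-fold lower. With normexp background correction, 6 of the 18 were higher and 0 lower. Of the 18, 14 were on the list of probes raised in crt/KU-2025, and 12 of these 14 were higher. Of 32 receptor kinase probes, which sense signals at the cell surface, 19 were higher and 2 were lower, or 12 and 0 with normexp background correction. The cysteine-rich receptor kinase 20 probe rwhr23l14 had 918 and 915 in crt/KU-2025, against 15.1 and 19 in Ldn/KU-2025, at least 38.1-fold higher. The wall-associated receptor kinase 5 probe rwhkp15b19_765 was at least 7.76-fold lower. Of the 32 receptor kinase probes, 24 were on the list of probes raised in crt/KU-2025, and these held all 19 that were higher. F-box proteins, which choose targets for degradation, had 24 of 26 probes higher and 0 lower, and 25 of the 26 were on the study's list of probes raised in crt/KU-2025. rwhoh22p04, the F-box probe with the largest fitted rise, had 1122 and 1051 in crt/KU-2025, against 5.36 and 5.21 in Ldn/KU-2025, at least 45.1-fold higher. With normexp background correction 15 of the 26 F-box probes were higher.

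Genes of hormone metabolism and response were higher in 16 of 21 probes and lower in 0, and 17 of the 21 came from the list of probes raised in crt/KU-2025. For cytokinin, a hormone of cell division and bud outgrowth, the type-A response regulator RR4 (MUGEST2003_23lib_Contig15951_122) had 3236 and 3826 in crt/KU-2025, against 356 and 371 in Ldn/KU-2025, a log2 ratio of 3.28. Cytokinin-O-glucosyltransferase 1 (wheat0130Contig2583), an enzyme that stores cytokinin as a glucoside, had 1447 and 2009 in crt/KU-2025, against 168.5 and 154.9 in Ldn/KU-2025, a log2 ratio of 3.40. For gibberellin, the hormone of stem elongation, both a synthetic and a degrading enzyme were higher. Gibberellin 20-oxidase (rwhe21i13), an enzyme of synthesis, had 585 and 461 in crt/KU-2025, against 17.7 and 35.2 in Ldn/KU-2025, a log2 ratio of 4.38, and was well above background on 1 of the 2 Ldn/KU-2025 arrays. Gibberellin 2-beta-dioxygenase 8 (MUGEST2003_23lib_Contig9147_253), which inactivates gibberellin, was at least 4.04-fold higher. The keywords that define these 21 probes did not take in a pair of described auxin probes, of which 1 was higher and 1 lower. An IAA-amido synthetase-like probe (MUGEST2003_23lib_Contig9767_563), of the enzymes that conjugate auxin to amino acids, had 2567 and 2662 in crt/KU-2025, against 48.3 and 55.9 in Ldn/KU-2025, a log2 ratio of 5.65. The auxin conjugate hydrolase ILR1 (MUGEST2003_23lib_Contig8072_765) had 85.6 and 238 in crt/KU-2025, against 913 and 835 in Ldn/KU-2025, a log2 ratio of -2.61, with an adjusted p of 0.0362 that became 0.116 to 0.125 with 1 of the Ldn/KU-2025 arrays left out. Within the 21, auxin transporter 1 (MUGEST2003_23lib_Contig9612_729) had 43838 and 44114 in crt/KU-2025, against 11184 and 10837 in Ldn/KU-2025, a log2 ratio of 2.0. With normexp background correction, 8 of the 21 hormone probes were higher and 0 lower.

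Secondary metabolism, detoxification and transport held large single changes. Of 24 phenylpropanoid and O-methyltransferase probes, the enzymes of lignin and related phenols, 16 were higher and 1 was lower. Of the 24, 17 were on the study's list of probes raised in crt/KU-2025, and these held 14 of the 16 that were higher. The O-methyltransferase ZRP4 probe wheat0130Contig4791 had 3377 and 4405 in crt/KU-2025, against 6.28 and 6.08 in Ldn/KU-2025, at least 160.3-fold higher, and the laccase-4-like probe wheat0130Contig12557, an enzyme of lignin polymerisation, had 239 and 136 in crt/KU-2025, against 1351 and 1361 in Ldn/KU-2025, a log2 ratio of -2.91, whose adjusted p of 0.00845 became 0.0519 to 0.0525 with 1 of the Ldn/KU-2025 arrays left out. Of 8 glutathione S-transferase probes 6 were higher and 0 lower, and MUGEST2003_23lib_Contig9238_107 was at least 70.2-fold higher. All 6 of the higher ones came from the list of probes raised in crt/KU-2025. A probe described as glutathione transferase that the keyword of this class did not take in, rwhh7k11, was lower, with 111 and 115 in crt/KU-2025, against 3054 and 3259 in Ldn/KU-2025, a log2 ratio of -4.80. Of 12 cytochrome P450 probes 9 were higher and 0 lower, and MUGEST2003_23lib_Contig6614_250 had 25427 and 22913 in crt/KU-2025, against 1739 and 1830.5 in Ldn/KU-2025. Of the 9 higher ones, 6 came from the list of probes raised in crt/KU-2025. Polyol transporter 5 (MUGEST2003_23lib_Contig22075_1190) had 11667 and 13235 in crt/KU-2025, against 177 and 261 in Ldn/KU-2025, a log2 ratio of 5.85, and metallothionein 1B (wheat0130Contig13836), a metal-binding protein, had 4787 and 5985 in crt/KU-2025, against 161 and 164 in Ldn/KU-2025, a log2 ratio of 5.04. Alpha-amylase (wheat0130Contig2558), a starch-degrading enzyme, had 3281 and 3639 in crt/KU-2025, against 135 and 119 in Ldn/KU-2025, and the legumin-like storage protein probe wheat0130Contig7960 had 57661 and 54392 in crt/KU-2025, against 9055 and 8544 in Ldn/KU-2025. Of 10 probes for cell wall synthesis and modification, 2 were higher and 1 was lower, beside 9.23% and 8.86% of all probes, and nothing is read from these counts. The lower one was the cellulose synthase probe wheat0130Contig11052 with 7283 and 7507 in crt/KU-2025, against 22398 and 23105 in Ldn/KU-2025. Heat shock cognate 70 kDa (wheat0130Contig12558), a protein-folding chaperone, had 173 and 182 in crt/KU-2025, against 2969 and 3166 in Ldn/KU-2025, a log2 ratio of -4.11 (SE 0.09, adjusted p of 0.00125). It was 1 of the 2 heat and cold probes that were lower, beside 8 of the 11 that were higher. The other was ncbi_gi_32129129_317, with 36 and 13.1 in crt/KU-2025, against 600.1 and 704 in Ldn/KU-2025, whose description names a fungal protein and whose adjusted p of 0.00945 became 0.0522 to 0.0537 with 1 of the Ldn/KU-2025 arrays left out. A probe described as heat shock 70kDa of a fish, rwhsp12i01_120, was at least 33-fold higher. With normexp background correction 5 of the 11 were higher and 2 lower. All 8 of the heat and cold probes called higher came from the list of probes raised in crt/KU-2025.

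MYB and NAC transcription factors described on the study's lists of changed probes were mostly higher. Of 11 MYB probes 9 were higher and 0 lower, and MYBAS1 (whr2c01) had 459 and 447 in crt/KU-2025, against 6.99 and 6.9 in Ldn/KU-2025, at least 18.8-fold higher. Of 7 NAC probes 5 were higher and 1 was lower. All 9 of the higher MYB probes and all 5 of the higher NAC probes came from the list of probes raised in crt/KU-2025. The NAC probe rwhe1p21 had 3304 and 3564 in crt/KU-2025, against 118 and 113 in Ldn/KU-2025, a log2 ratio of 4.89, whereas NAC 8-like (wheat0130Contig2091) had 187 and 180.2 in crt/KU-2025, against 871 and 912 in Ldn/KU-2025, a log2 ratio of -2.28. The arrays within each line were close for both NAC probes, and the groups lay in opposite orders. Among 9 probes for RNA polymerase, nucleolar and ribosomal proteins, all on the list of probes raised in crt/KU-2025, 7 were higher and 0 lower. The 40S ribosomal protein S28 probe wheat0130Contig11117 had 684 and 569 in crt/KU-2025, against 5.83 and 5.74 in Ldn/KU-2025, at least 25.9-fold higher. Of 4 transposon probes 2 were higher and 0 lower, and the retrotransposon probe wheat0130Contig7039 had 695 and 621 in crt/KU-2025, against 5.9 and 5.85 in Ldn/KU-2025. Of 14 sugar metabolism and transport probes 6 were higher, of 8 nitrate and peptide transporters 4 were higher, and of 8 aquaporins 3 were higher, with 0 lower in each. The shares over all probes were 9.23% higher and 8.86% lower. All members of these 3 classes came from the study's lists of probes raised against WT in a dwarf line. The hexose carrier HEX6 (rwhdp12m15_579) had 770.2 and 834 in crt/KU-2025, against 22.2 and 33.1 in Ldn/KU-2025, the NRT1/PTR family probe wheat0130Contig3115 had 14090.1 and 16159.6 in crt/KU-2025, against 2429 and 2235 in Ldn/KU-2025, and the NOD26-type intrinsic protein probe wheat0130Contig10653 was at least 9.74-fold higher. Without replicate 1 of crt/KU-2025, 10 of the 14 sugar probes were higher, and with normexp background correction 3 of the sugar probes and 1 of the aquaporins were.

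**Figure D4:**
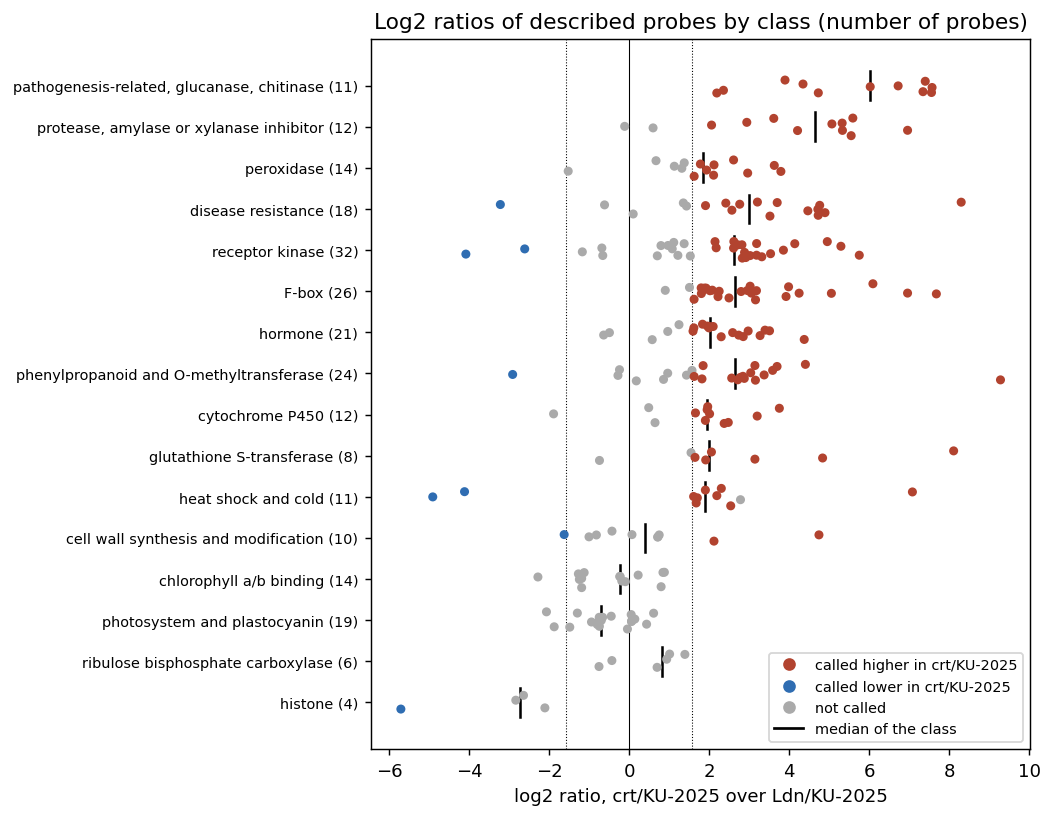
Log2 ratio of crt/KU-2025 over Ldn/KU-2025 (horizontal axis) for the described probes of 16 classes, with the number of probes in parentheses. Each point is 1 probe, black bars are class medians and dotted lines mark 3-fold. The classes from PR proteins to heat shock lie mostly to the right, while the 3 photosynthesis classes hold 0 called probes.

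No photosynthesis probe was called, and the crt/KU-2025 arrays were far apart for nearly all of them. Of 39 probes for chlorophyll a/b binding proteins, photosystem subunits, plastocyanin and ribulose bisphosphate carboxylase and its activase, 0 were called by limma, 1 had an unadjusted p under 0.05, and the methods' t-test also called 0. All 39 come from the study's list of probes raised in Ldn/KU-2025 against WT. Over all probes 18.1% were called. In 38 of the 39 the crt/KU-2025 arrays were at least 3-fold apart, against 5.08% of all probes, with replicate 2 above replicate 1 in each. The activase probe wheat0130Contig57 had 49.5 and 4316 in crt/KU-2025, against 759.5 and 795 in Ldn/KU-2025. The summed signals of the 38 probes were 15566 and 259851 on the crt/KU-2025 arrays, against 56307 and 59646 on the Ldn/KU-2025 arrays, so that the Ldn/KU-2025 sums lay between those of the crt/KU-2025 arrays. Relative to the Ldn/KU-2025 mean, the median log2 ratio of the 39 probes was -2.42 for replicate 1 and 1.75 for replicate 2 of crt/KU-2025. Without replicate 1 of crt/KU-2025, 21 of the 39 were called higher, and without replicate 2, 29 were called lower. The exception was rwhcs20f08_m_664, a chlorophyll a/b binding probe with 8396 and 8315 in crt/KU-2025, against 4815 and 4770.1 in Ldn/KU-2025, a log2 ratio of 0.80 that was below 3-fold. In whole crown samples, fewer green cells and less transcript per cell cannot be told apart.

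Histone transcripts mark dividing cells. Of 4 histone probes 1 was lower and 0 higher, with a median log2 ratio of -2.73, and the crt/KU-2025 arrays were apart in the opposite direction, with replicate 1 above replicate 2. All 4 come from the study's list of probes lowered in Ldn/KU-2025 against WT. The histone H4 probe wheat0130Contig5388 had 21.06 and 9.78 in crt/KU-2025, against 724 and 772 in Ldn/KU-2025, at least 29.9-fold lower. The histone probe wheat0130Contig15397 had 537 and 104 in crt/KU-2025, against 1616 and 1743 in Ldn/KU-2025, a log2 ratio of -2.83 with an adjusted p of 0.0843. In 3 of the 4 probes the crt/KU-2025 arrays were at least 3-fold apart, and all 4 were called lower without replicate 1 of crt/KU-2025. Of the 91 defence-related probes, 1 had crt/KU-2025 arrays at least 3-fold apart, and their median log2 ratio to the Ldn/KU-2025 mean was 2.85 for replicate 1 and 2.79 for replicate 2 of crt/KU-2025. For the 9 MADS-box probes these medians were -4.33 and -3.66. The part of the uneven crt/KU-2025 arrays in the histone and photosynthesis values was not tested.

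**Figure D5:**
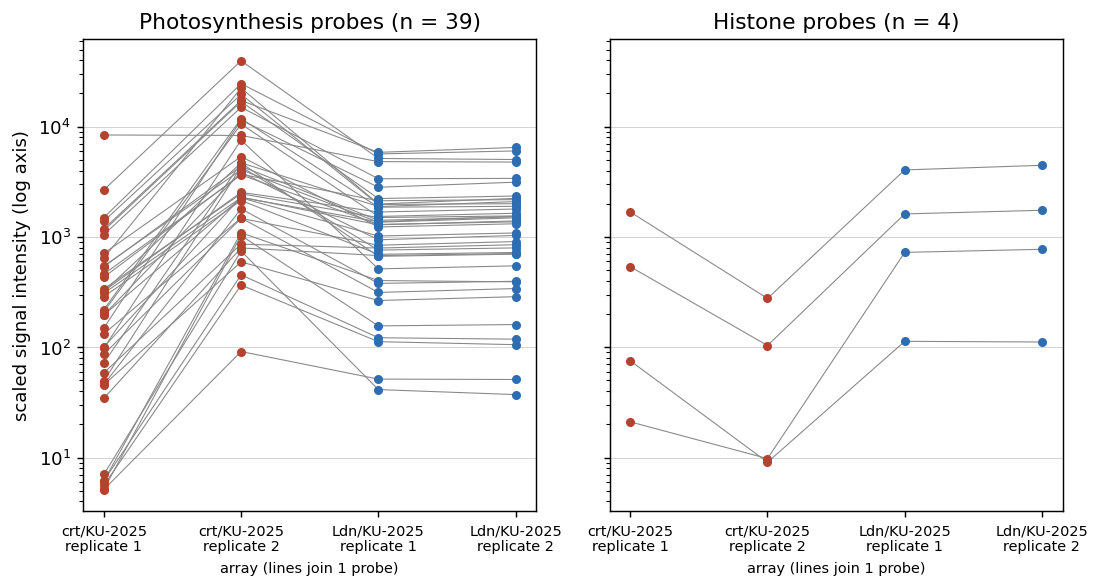
Scaled signals (vertical, log axis) of 39 photosynthesis probes and 4 histone probes on each of the 4 arrays, with the crt/KU-2025 arrays left of the Ldn/KU-2025 arrays and a line for each probe. In 38 of the 39 photosynthesis probes replicate 2 of crt/KU-2025 is at least 3-fold above replicate 1, and all 4 histone probes are lower on both crt/KU-2025 arrays than on the Ldn/KU-2025 arrays, and lower on replicate 2 than on replicate 1.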

How the data were processed

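Crown RNA of 6 samples was hybridized to 1-color KOMUGI 38k arrays, 2 from independent experiments for each line per the methods. The deposited intensity values are processed signals that the authors obtained with Agilent Feature Extraction (version 9.5 per the processing notes, 10.7.3.1 per the file headers), background-subtracted but not scaled between arrays. The deposited value table holds the same intensities after the scaling by the authors and served as an alternative.

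The processed signals of 37826 probes, without 1417 control spots, were multiplied by 2500 over the 2% trimmed mean of each array (factors of 2.24 and 2.47 for crt/KU-2025, 1.79 and 1.73 for Ldn/KU-2025) and put on the log2 scale. limma 3.58.1 (R 4.3.3; lmFit and eBayes) was fitted to the 4 arrays alone, with 2 residual degrees of freedom, and adjusted by Benjamini-Hochberg over all probes. The small number of arrays limits the precision, and p-values measure only the spread between arrays of 1 slide per line. Tables and plots were made with Python 3.11.15, pandas 2.3.3, numpy 2.4.6 and matplotlib 3.10.9. The fitting code was tested on simulated data.

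The replicate numbers pair no samples: the correlation of replicate differences between the lines was -0.057 over probes. Descriptions come from the study's lists of changed probes, and 0 probe names matched the RefSeq gene table, so that positions are not given. Named probes were the 3 largest rises and falls and the 8 largest described ones among probes above background on all 4 arrays, the probes that the study names, the largest change of each class in each direction, the 3 brightest probes measured in 1 line only, and the PR1, PR4 and germin probes, with 13 more chosen after their values were seen. The members and lists were chosen with earlier results of these data known. Alternatives were other scalings, normexp background correction (offset 50) on median spot signals, a filter on dim probes, each array left out, a replicate block, all 6 arrays in the fit, an intensity trend, other t-tests and a 2-fold threshold. No list of markers that define crown tissue was in the sources, so the tissue label was not checked against one.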

Additional observations from a re-analysis of the deposited data

How the results depend on the processing

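The counts of 3491 higher and 3351 lower probes were most open to the background correction, the test and the threshold. With normexp 1849 were higher and 1882 lower, the methods' t-test adjusted over all probes called 1911 higher, a t-test on log2 signals called 2127 lower, and a 2-fold threshold gave 6628 and 5291. Leaving out each array in turn gave 2881 to 4244 higher and 2277 to 3916 lower probes. A replicate block gave 3395 higher and 3028 lower, of which 3365 and 3012 were also called without the block, and left 32 transcription factor, 68 defence-related and 0 photosynthesis probes called. With normexp 17 of the 32 transcription factor calls were counted, in 8 higher and 9 lower probes. Leaving out each array in turn gave 0 to 29 photosynthesis calls (21 higher without replicate 1 of crt/KU-2025, 29 lower without its replicate 2). Setting the 75th percentiles equal turned the median log2 ratio of all probes to -0.0087, so that changes near 0 have no settled direction. It was 0.0455 after quantile normalization, 0.284 with normexp and 0.173 without dim probes, and leaving out each array gave 0.100 to 0.139. The SD of the log2 ratios was 1.01 with normexp and 1.71 without dim probes (1.55 to 1.68 with each array left out), and the share at least 3-fold apart was 10.2% and 24.3% (20.4% to 23.5%). Of probes measured in 1 line only, 211 for crt/KU-2025 and 182 for Ldn/KU-2025 were at least 10-fold over the bound, and the positive-and-significant flag left 703 for crt/KU-2025 and 712 for Ldn/KU-2025. The cause of these shifts was not tested.

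Of the 98 named probes that were called, normexp left 79, the methods' t-test adjusted over all probes 82, quantile normalization 95 and the replicate block 96, with 0 reversed in any setting. With 1 of the Ldn/KU-2025 arrays left out, whichever it was, 8 calls were lost, without replicate 2 of crt/KU-2025 3, and without its replicate 1 0. The CBFIVb-21.1 probe wheat0130Contig8964, which was not called and was below background in crt/KU-2025, had a log2 ratio of -1.25 that was 0.0943 with normexp. Probes near background limit the comparison, since 6425 probes were well above background on none of the 4 arrays.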

Other observations

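The 2 WT arrays, which entered no comparison, were read only for whether a probe was well above background. Of the 1043 probes measured in crt/KU-2025 but not in Ldn/KU-2025, 33 were well above background on both WT arrays, 86 on 1 and 924 on neither. Of the 1254 probes measured in Ldn/KU-2025 but not in crt/KU-2025, 1039 were well above background on both WT arrays, 91 on 1 and 124 on neither. WT and Ldn/KU-2025 share the Langdon parent and slide 1, and these cannot be told apart here.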
